A study of Sus scrofa with 12 samples.

Results

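Genes that define blood vessel endothelium or build its tight junctions were followed in the striatum of newborn pigs after deep hypothermic circulatory arrest (DHCA). The set is a list of 36 gene names, of which 32 were found among the gene names of the authors' deposited table and were read from the raw counts by Ensembl ID, out of 25880 gene IDs in the count table. SOX7, ECSCR, EGFL7 and TJP1 were absent under those names and were dropped. Of the 32 genes, 29 had enough counts to be tested together with all other genes (14004 in all), and SOX18, PROCR and TFPI did not. Sham piglets (n = 6) were neonatal Sus scrofa held under 4% isoflurane. DHCA piglets (n = 6) received the same anaesthetic, were opened by sternotomy and put on cardiopulmonary bypass, cooled to 18 °C, held in arrest for 30 min, rewarmed to 37 °C and left to recover for 6 h. The comparison asks how striatal RNA differs after the whole procedure. Surgery, bypass, cooling and arrest cannot be told apart in it.

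The endothelium of brain vessels forms the blood-brain barrier. Its identity is set by transcription factors of the ETS family (ERG, FLI1) and the SOXF family (SOX7, SOX17, SOX18). Neighbouring cells are sealed by tight junctions, in which occludin, the claudins and the junctional adhesion molecules bind to zonula occludens proteins, while tricellulin (MARVELD2) and the lipolysis-stimulated receptor (LSR) sit where 3 cells meet. Wnt ligands from the surrounding tissue act through the FZD4 receptor, beta-catenin and LEF1 to keep the barrier, and Notch signalling sets arterial identity. Barrier endothelium has few caveolae and little PLVAP, the diaphragm protein of leaky vessels. The tissue was bulk striatum, so fewer endothelial cells and less RNA per endothelial cell cannot be told apart.

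Library totals ranged from 1377809 to 12933536 counts, and 3 sham libraries stood apart. Sham 1 (2515816 counts) and Sham 5 (1377809 counts) had 4.01% and 7.3% of their counts from the mitochondrial chromosome, against 10.6% to 26.3% in the other 10. Sham 4 went against its label. The summed level of 10 markers of striatal spiny neurons was 172.3 CPM (counts scaled to the TMM-normalised library size) in Sham 4 and 2248 to 5940 CPM in the other 11 libraries. SLC17A6, a glutamate transporter gene of thalamic neurons, was at 11.9 CPM in Sham 4 and at 0 to 1.55 CPM elsewhere. Other thalamic and diencephalic markers were mixed. CALB2 was highest in Sham 4 (28.1 CPM), PRKCD was lowest there (14.6 CPM), and LHX9, GBX2 and SHOX2 were at 0 CPM. The summed level of 10 such markers was 153.2 CPM in Sham 4 and 158.2 CPM in Sham 1. These marker lists were chosen after values of the libraries were known. For a part of the named results, values without these libraries are given beside them.

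Endothelial RNA was present in all 12 libraries. The 32 genes summed to 711 to 1070 CPM in sham and 739.1 to 879.6 CPM in DHCA. The sum includes S1PR1, JAM3 and JAM2, which other brain cells also express, so it does not measure endothelial RNA alone. Per kilobase of exon, S1PR1 was the most abundant in sham (26.6 ± 4.05 CPM per kb, SD, n = 6), followed by JAM3 (20.7 ± 7.74) and JAM2 (12.6 ± 5.08). LSR (9.78 ± 4.93), VWF (9.71 ± 5.78), NOTCH4 (7.86 ± 5.58) and PTPRB (7.80 ± 2.80) followed at levels that differed by less than their spread. The transcription factors were lower, with FLI1 at 4.06 ± 1.53 and ERG at 2.26 ± 0.483 CPM per kb. SOX18, PROCR and TFPI, all under 1 CPM per kb, were 3 of the 4 least abundant, the other being ICAM2 (0.590 ± 0.291).

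After DHCA the fold changes had both signs. LEF1 and the progenitor and vessel antigen CD34 had lower levels, the junction genes OCLN, ESAM and LSR, the transcription factor FLI1 and VWF were lower by smaller margins, and the sphingosine 1-phosphate receptor S1PR1 was higher. None of the 29 passed the edgeR quasi-likelihood test after Benjamini-Hochberg adjustment over all 14004 genes, where 0.186% of genes passed. An unadjusted p under 0.05 was found for 8 of 29 (27.6%, against 7.90% of all genes). Of these, 7 of 29 were lower (24.1%) and 1 was higher (3.45%), against 4.47% and 3.43% of all genes tested. These counts rested in part on Sham 1. Without it, 5 were lower and 4 higher, against 4.24% and 3.82% of all genes, as LSR and VWF dropped out and ROBO4, MARVELD2 and THBD came in. LEF1 alone had groups that did not overlap, 1 of 29 (3.45%) against 0.993% of all genes in either direction and 0.314% in the lower one, and 0 of 29 were separated in the higher direction against 0.678%. Of the 29 fold changes 17 were negative (58.6%, against 50.5% of all genes). Their median log2 fold change was -0.125, and that of all genes was -0.003. Over the fits without 1 library the median of the 29 ranged from -0.164 to -0.0164, the latter without Sham 2. The median size of change, without sign, was 0.37 for the 29 and 0.21 for all genes.

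**Figure D1:**
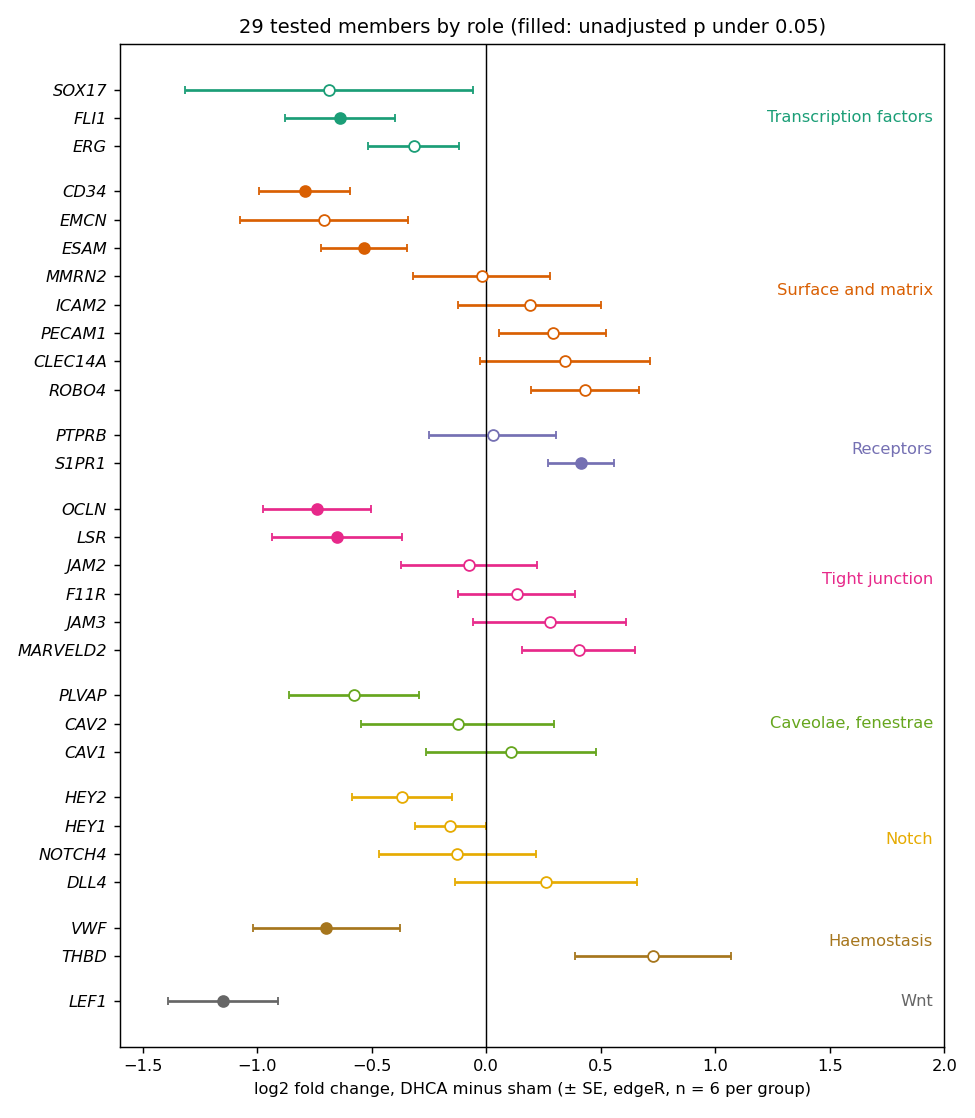
Fitted log2 fold change (DHCA minus sham, horizontal axis) with its standard error for each of the 29 tested genes, grouped by role, with 6 libraries per group. Filled points are the 8 genes with an unadjusted p under 0.05, of which LEF1 lies farthest from 0 at -1.15 and S1PR1 is the one to the right of 0.

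Among the transcription factors, FLI1 (chromosome 9, 55612901 to 55749781, build Sscrofa11.1), an ETS factor of endothelium and blood cells, had a lowest, median and highest level of 8.53, 13.8 and 24.0 CPM in sham and 6.30, 9.68 and 10.9 CPM in DHCA. The groups overlapped, with Sham 1 and Sham 2 inside the DHCA range and Sham 5 the highest. FLI1 had a log2 fold change of -0.64 (SE 0.24, edgeR unadjusted p = 0.0185, adjusted p = 0.48). Its relative ERG (chromosome 13, 201996905 to 202129223), the most endothelial of the ETS factors, ran from 9.44 to 17.1 CPM in sham and from 8.29 to 13.6 CPM in DHCA, with a log2 fold change of -0.32 (SE 0.20, edgeR adjusted p = 0.765). Without Sham 1, Sham 4 and Sham 5 the ERG value was -0.12 (SE 0.23).

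SOX17 (chromosome 4, 76855151 to 76857176), a SOXF factor of arterial endothelium, reached 26.8 CPM in Sham 1. The other 5 sham piglets had 1.91 to 3.37 CPM, and the DHCA piglets 1.38 to 5.30 CPM. Its direction rested on that library. The log2 fold change was -0.69 (SE 0.63) with Sham 1 and 0.50 (SE 0.31) without it. SOX18, the SOXF factor of lymphatic and blood vessels, was too low for the filter, with 63 counts in the 6 sham libraries and 28 in the 6 DHCA libraries. SOX18 lay at 0.666 to 1.99 CPM in sham and 0.224 to 1.22 CPM in DHCA, and its exons overlap those of TCEA2 on the other strand. SOX18 was lower at an unadjusted p under 0.05 in the fits that kept it, DESeq2 and edgeR without a filter. The authors' deposited table gives SOX18 a log2 fold change of -1.09 (unadjusted p = 0.0492, adjusted p = 0.493).

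The surface proteins of endothelium divided. CD34 (chromosome 9, 134913389 to 134940648), a sialomucin of vessel lining and blood progenitors, had a lowest, median and highest level of 13.0, 17.9 and 19.4 CPM in sham and 6.45, 9.46 and 13.7 CPM in DHCA. Every DHCA library except DHCA 1 lay below every sham library. The log2 fold change of CD34 was -0.79 (SE 0.20, edgeR unadjusted p = 0.00126, adjusted p = 0.171), and over the fits without 1 library it ranged from -0.92 to -0.71.

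ESAM (chromosome 9, 51983021 to 51992395), an adhesion molecule of endothelial tight junctions, had 9.95, 12.7 and 17.3 CPM as its lowest, median and highest level in sham and 6.39, 8.56 and 11.2 CPM in DHCA. Sham 4 was the one sham library inside the DHCA range. ESAM had a log2 fold change of -0.53 (SE 0.19, edgeR unadjusted p = 0.0121, adjusted p = 0.423). Endomucin (EMCN), a sialomucin of capillaries and veins, had -0.71 (SE 0.37, edgeR adjusted p = 0.701), with 2.00 to 12.5 CPM in sham and 2.04 to 8.45 CPM in DHCA. Without Sham 1 and Sham 5 the EMCN value was -0.87 (SE 0.34, edgeR unadjusted p = 0.0272, adjusted p = 0.505). Over the fits without 1 library it ranged from -0.91 to -0.53, with 2 of 12 at an unadjusted p under 0.05.

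Other surface genes had fold changes near or above 0. PECAM1 (chromosome 12, 14636641 to 14723295), the adhesion molecule CD31 shared by endothelium, platelets and leukocytes, had a lowest, median and highest level of 16.7, 28.8 and 41.3 CPM in sham and 22.7, 39.2 and 47.0 CPM in DHCA. Those ranges overlapped (log2 fold change 0.29, SE 0.23, edgeR adjusted p = 0.811). Its exons overlap those of MILR1 on the other strand, which had -1.23 (edgeR unadjusted p = 0.00223). ICAM2, a ligand of leukocyte integrins, had 0.19 (SE 0.31), the C-type lectin gene CLEC14A had 0.34 (SE 0.37) and MMRN2, a matrix protein that binds CLEC14A, had -0.02 (SE 0.30). CLEC14A was at 31.5 CPM in DHCA 2 and 25.0 CPM in DHCA 4, and at 6.59 to 15.0 CPM in the other 4 DHCA libraries.

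ROBO4 (chromosome 9, 52081840 to 52097795), a guidance receptor that steadies vessels, had 16.98, 24.2 and 46.5 CPM in sham and 29.5, 32.5 and 46.5 CPM in DHCA as lowest, median and highest. Sham 1 held the sham maximum, and the other 5 sham libraries lay at or below 28.2 CPM, under all of DHCA. ROBO4 had a log2 fold change of 0.43 (SE 0.24, unadjusted p = 0.0899 by edgeR) with all libraries and 0.65 (SE 0.18, unadjusted p = 0.00277, adjusted p = 0.193) without Sham 1. Its exons overlap those of ROBO3 on the other strand, and the counting did not separate strands. ROBO3 itself had -0.52 (unadjusted p = 0.41).

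Both receptor genes are known regulators of barrier tightness. S1PR1 (chromosome 4, 117064071 to 117069724), the receptor for sphingosine 1-phosphate, is also made by astrocytes. It had a lowest, median and highest level of 97.4, 112 and 146 CPM in sham and 137, 154 and 180 CPM in DHCA. Sham 1 alone among the sham libraries reached into the DHCA range. S1PR1 had a log2 fold change of 0.41 (SE 0.15, edgeR unadjusted p = 0.0129, adjusted p = 0.425), and 0.48 (SE 0.13, unadjusted p = 0.0023) without Sham 1. The summed level of 10 astrocyte markers was 5996 to 6818 CPM in sham and 5408 to 7855 CPM in DHCA. Its part in the S1PR1 difference was not tested. PTPRB, the phosphatase that restrains the TEK receptor, had 0.03 (SE 0.28), with 37.6 to 124.7 CPM in sham and 49.7 to 127.9 CPM in DHCA.

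**Figure D2:**
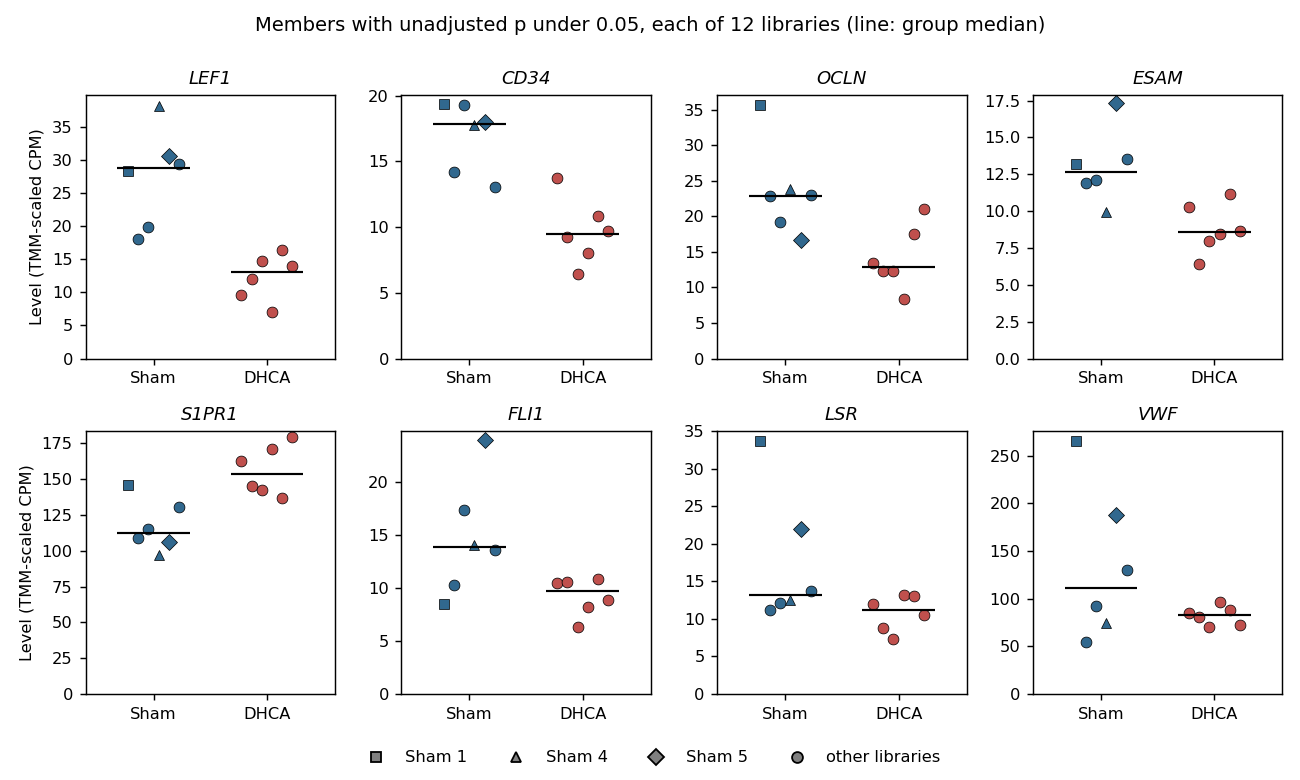
Level in TMM-scaled CPM (vertical axes from 0) of the 8 genes with an unadjusted p under 0.05 in each of the 6 sham and 6 DHCA libraries, with lines at group medians and own symbols for Sham 1, Sham 4 and Sham 5. LEF1 is the panel in which no DHCA library (6.99 to 16.5 CPM) reaches the sham range (18.1 to 38.2 CPM). In the VWF and LSR panels Sham 1 is the highest sham library and Sham 5 the next.

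In the tight junction group, OCLN (chromosome 16, 47600180 to 47652445) encodes occludin, a strand protein. OCLN had a lowest, median and highest level of 16.6, 22.9 and 35.7 CPM in sham and 8.33, 12.9 and 21.0 CPM in DHCA. DHCA 5 and DHCA 6 were the DHCA libraries that reached the sham range. The log2 fold change was -0.74 (SE 0.23, edgeR unadjusted p = 0.00695, adjusted p = 0.354), and it ranged from -0.88 to -0.60 over the fits without 1 library.

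LSR (chromosome 6, 44759414 to 44773283), which encodes a tricellular junction protein, had 11.2, 13.1 and 33.7 CPM in sham and 7.37, 11.2 and 13.2 CPM in DHCA. Its log2 fold change of -0.65 (SE 0.28, edgeR unadjusted p = 0.0369) moved to -0.36 (SE 0.21, unadjusted p = 0.115) without Sham 1 and to -0.19 (SE 0.18, unadjusted p = 0.314) without Sham 1 and Sham 5. The partner of LSR at tricellular contacts, MARVELD2 (chromosome 16, 47530054 to 47563022), ran from 5.93 to 14.7 CPM in sham and from 8.47 to 13.2 CPM in DHCA, a log2 fold change of 0.40 (SE 0.25, unadjusted p = 0.123). Without Sham 1 it was 0.62 (SE 0.19, unadjusted p = 0.00692, adjusted p = 0.295 by edgeR).

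OCLN and MARVELD2 lie 37158 bases apart on chromosome 16 and had opposite signs, so their ratio within each library was examined, a choice made after their values were seen. The log2 ratio of OCLN to MARVELD2 was 1.52 ± 0.305 in sham and 0.358 ± 0.438 in DHCA (SD, n = 6 per group). It ran from 1.24 to 1.91 in sham and from -0.10 to 0.96 in DHCA, so the groups did not overlap, as for 1.46% of the 165966 pairs of tested genes under 1 Mb apart. The difference was -1.16, and without any 1 library it lay between -1.28 and -1.07. It is given as a description with no test, since the pair was formed after its opposite signs were seen. A ratio within a library depends on its scaling to depth only through the 0.5 CPM added before the logarithm. It does not say which of the genes differed between the groups. MARVELD2 exons overlap those of RAD17, which had a log2 fold change of 0.11 (unadjusted p = 0.678), so the split of reads between these genes is uncertain.

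ESAM and ROBO4 lie 89445 bases apart on chromosome 9, and their opposite signs were likewise known. The log2 ratio of ESAM to ROBO4 was -0.931 ± 0.578 in sham and -1.94 ± 0.431 in DHCA, with overlapping ranges and a difference of -1.01. The ratio of PECAM1 to ICAM2 on chromosome 12 differed by 0.02 and that of CAV1 to CAV2 on chromosome 18 by 0.24, also with overlapping ranges.

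The junctional adhesion molecules had overlapping groups with all 12 libraries. JAM2, found in vessels and glia, was lowest in Sham 1 (11.6 CPM). The other 5 sham piglets had 44.6 to 67.0 CPM and the DHCA piglets 38.3 to 56.3 CPM, a log2 fold change of -0.07 (SE 0.30). It was -0.28 (SE 0.14, edgeR unadjusted p = 0.073) without Sham 1. Without Sham 1 and Sham 5 the JAM2 groups did not overlap and it was -0.35 (SE 0.13, unadjusted p = 0.0232, adjusted p = 0.485). F11R, which encodes JAM-A, had 0.13 (SE 0.26). JAM3, also expressed by oligodendrocyte-lineage cells, had 0.28 (SE 0.33) and its highest level in DHCA 3, 221.5 CPM against 57.1 to 118 CPM in the other DHCA libraries. The summed level of 12 oligodendrocyte-lineage markers was also highest in DHCA 3, at 66040 CPM against 4984 to 34070 CPM in the other 11 libraries. Without DHCA 3 the JAM3 value was -0.11 (SE 0.27). Its dependence on oligodendrocyte RNA was not tested. TJP1, the zonula occludens scaffold dropped by the naming rule, is given here outside the set. Under the ID that the reference table gives TJP1, it was at 141 to 257 CPM in sham and 154 to 227 CPM in DHCA, a fitted log2 difference of -0.26 (SE 0.17, edgeR adjusted p = 0.775).

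CAV1 (chromosome 18, 29648118 to 29682467) and CAV2 (29697188 to 29707277 on the same chromosome) encode the caveolins that shape caveolae. CAV1 had a lowest, median and highest level of 4.65, 9.90 and 18.2 CPM in sham and 5.64, 9.34 and 21.4 CPM in DHCA, with a log2 fold change of 0.11 (SE 0.37, edgeR adjusted p = 0.951). CAV2 had -0.12 (SE 0.42). Both were highest in DHCA 3 and Sham 2, the libraries with the most oligodendrocyte-lineage RNA (66040 and 34070 CPM). The next in such RNA were Sham 5, Sham 1 and DHCA 2 (29870, 28030 and 26540 CPM). There CAV1 was at 10.7, 4.65 and 5.84 CPM and CAV2 at 6.66, 5.82 and 4.35 CPM. A link of the caveolins to oligodendrocyte RNA was not tested. Across the 12 libraries the log2 levels of CAV1 and CAV2 had Pearson r = 0.921 (permutation p = 3e-05) and Spearman rho = 0.937 (permutation p = 3e-05), and r = 0.932 without DHCA 3 and Sham 1, the libraries farthest from the CAV1 median. Within sham r was 0.848 and within DHCA 0.995. This was 1 of 57 pairs of genes that share a role, and the one that passed after adjustment over the 57 (adjusted p = 0.00171).

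PLVAP (chromosome 2, 60324485 to 60347510) had a lowest, median and highest level of 12.7, 20.9 and 33.3 CPM in sham and 7.37, 14.7 and 21.0 CPM in DHCA. The groups overlapped (log2 fold change -0.58, SE 0.29, edgeR unadjusted p = 0.0625, adjusted p = 0.678). Its highest levels were in Sham 1 and Sham 5, 33.3 and 28.0 CPM, and without them the PLVAP log2 fold change was -0.29 (SE 0.28, edgeR unadjusted p = 0.32).

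The Notch genes showed no difference larger than the spread between libraries. DLL4 (chromosome 1, 130374120 to 130386314), the endothelial ligand, had 2.66, 9.89 and 14.7 CPM in sham and 4.76, 9.55 and 17.1 CPM in DHCA, with a log2 fold change of 0.26 (SE 0.40, edgeR adjusted p = 0.874). NOTCH4, an endothelial receptor, reached 112.8 CPM in Sham 1. The other 5 sham piglets had 21.8 to 48.4 CPM, and the DHCA piglets 35.1 to 64.5 CPM. Its log2 fold change was -0.13 (SE 0.34), and 0.33 (SE 0.21) without Sham 1. The target genes HEY1 and HEY2 had -0.16 (SE 0.15) and -0.37 (SE 0.22).

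VWF (chromosome 5, 64517481 to 64678840), the platelet-binding factor stored in endothelial granules, had a lowest, median and highest level of 54.4, 111 and 266 CPM in sham and 70.4, 82.5 and 96.9 CPM in DHCA. The DHCA libraries lay inside the sham range, and Sham 1 and Sham 5 were the highest (266 and 188 CPM). The VWF log2 fold change was -0.70 (SE 0.32, edgeR unadjusted p = 0.0476), and -0.10 (SE 0.21, unadjusted p = 0.658) without Sham 1 and Sham 5. Thrombomodulin (THBD, chromosome 17, 30220162 to 30223499), which turns thrombin towards the anticoagulant protein C, had 5.27, 8.77 and 12.6 CPM in sham and 5.48, 14.3 and 23.9 CPM in DHCA. The DHCA libraries spread over the whole sham range and above it. THBD had the largest positive fold change of the 29 (log2 fold change 0.73, SE 0.34, edgeR unadjusted p = 0.0501, adjusted p = 0.632). It was 0.85 (SE 0.35, edgeR unadjusted p = 0.0311) without Sham 1 and 0.99 (SE 0.37, unadjusted p = 0.0199) without Sham 1 and Sham 5. Over the fits without 1 library THBD ranged from 0.51 to 0.89, with 4 of 12 at an unadjusted p under 0.05.

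The endothelial protein C receptor gene PROCR and TFPI, the inhibitor of the tissue factor pathway, were close to the detection limit. PROCR had 21 counts in each group. TFPI had 20 counts in sham and 10 in DHCA, with 0 counts in Sham 1, Sham 3, Sham 5 and DHCA 1, where a count of 0 allows up to 1.16, 0.404, 2 and 0.294 CPM. A difference in these genes was not detectable at this depth.

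LEF1 (ENSSSCG00000009148, chromosome 8, 113824511 to 113946000), the transcription factor through which beta-catenin acts on Wnt target genes, had the largest fold change of the set. Its lowest, median and highest level was 18.1, 28.8 and 38.2 CPM in sham and 6.99, 13.1 and 16.5 CPM in DHCA. Every DHCA library lay below every sham library, with DHCA 4 the lowest and Sham 4 the highest. The log2 fold change of LEF1 was -1.15 (SE 0.24, edgeR unadjusted p = 0.000289, adjusted p = 0.0785), a ratio of 0.451. Over the fits without 1 library it ranged from -1.25 to -1.03, with adjusted p from 0.0497 without Sham 2 to 0.216. Outside vessels LEF1 is expressed by thalamic neurons and T lymphocytes. The summed level of 10 thalamic and diencephalic markers was 82.6 to 158.2 CPM in sham, highest in Sham 1 and Sham 4, and 66.7 to 124.5 CPM in DHCA. Without Sham 4 the LEF1 log2 fold change was -1.03 (SE 0.24, unadjusted p = 0.00089), and without Sham 1, Sham 4 and Sham 5 it was -0.87 (SE 0.26, unadjusted p = 0.00699). The T cell genes CD3E and CD3D were at or under 0.272 CPM in all libraries but Sham 1, which had 1.94 and 1.16 CPM. Both genes were too low for the filter, with 7 and 5 counts in the 6 sham libraries and 7 and 3 in the 6 DHCA libraries. The part of such cells in the LEF1 difference was not tested.

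**Figure D3:**
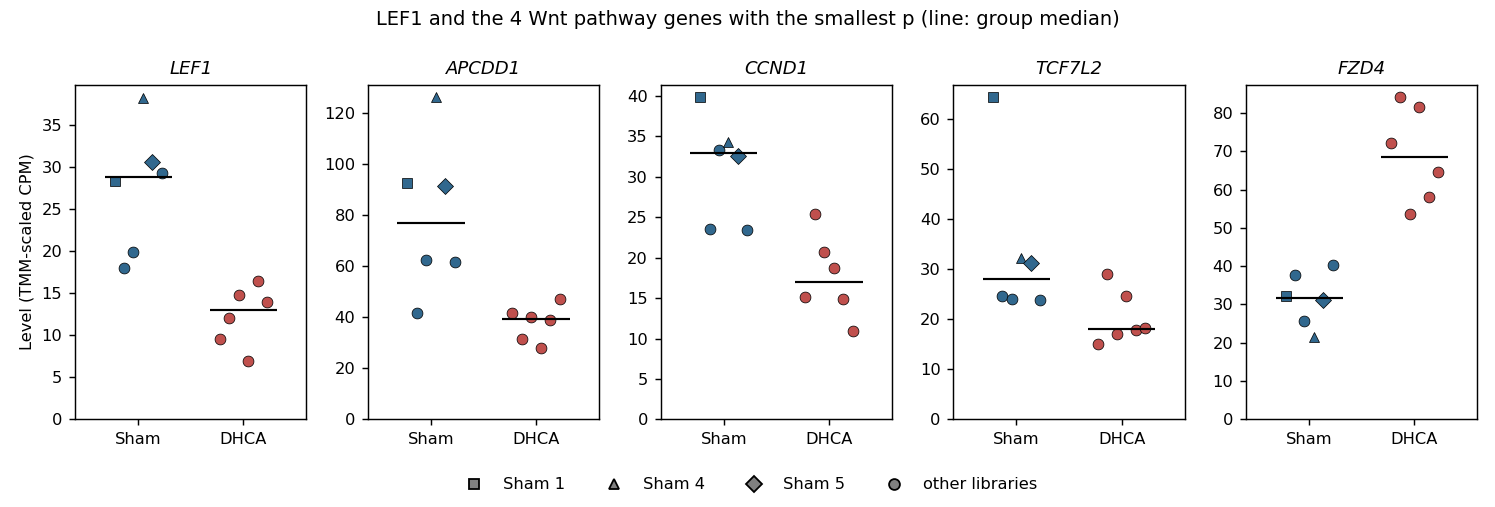
Level in TMM-scaled CPM (vertical axes from 0) of LEF1 and of the 4 Wnt pathway genes with the smallest p, in 6 sham and 6 DHCA libraries, with lines at group medians. FZD4 lies higher in all 6 DHCA libraries (53.6 to 84.2 CPM) than in any sham library (21.5 to 40.2 CPM), while LEF1, APCDD1, CCND1 and TCF7L2 have lower medians in DHCA.

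Of 26 other tested genes of the Wnt barrier pathway, 1 passed the test and 3 more had an unadjusted p under 0.05, all 3 lower. Of all genes tested, 0.186% passed and 4.47% were lower at that unadjusted threshold. FZD4, the receptor for norrin and Wnt on brain endothelium, rose (log2 fold change 1.13, SE 0.19, edgeR adjusted p = 0.0279). That call was lost in 7 of the 12 fits without 1 library (adjusted p up to 0.105). APCDD1, a membrane inhibitor and target of the pathway, had -1.06 (SE 0.24, edgeR adjusted p = 0.135), the cell cycle gene CCND1 had -0.81 (SE 0.21) and the factor TCF7L2, also a thalamic marker, had -0.70 (SE 0.27). Without Sham 1, Sham 4 and Sham 5, APCDD1 was at -0.55 (SE 0.19) and TCF7L2 at -0.26 (SE 0.21, unadjusted p = 0.241). The median log2 fold change of the 26 was -0.15.

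Endothelial genes outside the set had fold changes of both signs. Of 39 tested, 13 lower and 2 higher genes had an unadjusted p under 0.05 (against 4.47% and 3.43% of all genes). Among the 39, 1 had groups that did not overlap, in the higher direction, against 0.678% of all genes. After adjustment 0 passed, against 0.186%, and the median log2 fold change was -0.45. Genes too low for the filter are not in these counts. CDH5, the endothelial cadherin, had 0.67 (SE 0.21, edgeR unadjusted p = 0.00706). Among the lower ones, PALMD had -0.85 (SE 0.21), the barrier factor gene FOXF2 -2.23 (SE 0.58), CYYR1 -0.98 (SE 0.30) and the angiopoietin receptor gene TEK -0.95 (SE 0.29). Without Sham 1 the FOXF2 value was -1.37, and without Sham 1, Sham 4 and Sham 5 it was -0.96. PALMD and TEK had their sham maxima in Sham 4, at 24.3 and 28.6 CPM. The other sham libraries reached at most 18.5 and 16.7 CPM. Without Sham 4 the PALMD value was -0.71 (SE 0.20).

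Other junction genes had 0 of 34 called (median 0.01), where 0.186% of all genes were called. An unadjusted p under 0.05 was found for 2, both lower, where 4.47% of all genes were lower at that threshold. The 2 were CGNL1, a paracingulin (-0.72, SE 0.23), and PATJ, a polarity protein (-0.52, SE 0.23). Without Sham 1, Sham 4 and Sham 5 they were at -0.25 (SE 0.14, unadjusted p = 0.101) and -0.41 (SE 0.21, unadjusted p = 0.0758), and PATJ kept an unadjusted p under 0.05 in 6 of the 12 fits without 1 library. Of 27 other Notch genes 0 were called, with 4 above and 3 below 0 among those at an unadjusted p under 0.05. The shares of all genes were 3.43% and 4.47%. JAG1, a Notch ligand, had 0.50 (SE 0.13) with groups that did not overlap. The arterial connexin genes GJA4 and GJA5 had opposite signs, 0.78 (SE 0.31) and -1.38 (SE 0.49), and the venous factor NR2F2 had -1.42 (SE 0.36), or -0.95 (SE 0.25) without Sham 4. The caveola genes had 1 of 11 at an unadjusted p under 0.05, EHD4 (0.89, SE 0.24), and the sphingosine 1-phosphate genes 0 of 12, against 7.90% of all genes in either direction.

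The coagulation and fibrinolysis genes had 2 of 19 called, both higher, where 0.136% of all genes were called higher. The tissue plasminogen activator gene PLAT rose by 1.53 on the log2 scale (SE 0.24, edgeR adjusted p = 0.023). The PLAT call was lost in 6 of the 12 fits without 1 library. Tissue factor (F3) had 0.71 (SE 0.21) and podoplanin (PDPN) 0.56 (SE 0.21). In all, 4 of 19 were higher at an unadjusted p under 0.05 and 0 lower, against 3.43% and 4.47% of all genes. Of 8 tested endothelial activation genes, ICAM1 (1.19, SE 0.52) and ANGPT2 (0.56, SE 0.23) were higher at an unadjusted p under 0.05 (against 3.43% of all genes) and 0 were called. ICAM1 kept such a p in 3 of the 12 fits without 1 library, with a log2 fold change of 2.03 without Sham 2 (edgeR adjusted p = 0.0497), and had 0.59 (SE 0.53, unadjusted p = 0.29) without Sham 1, Sham 4 and Sham 5. ANGPT2 kept it in 6 of the 12, and had 0.38 (SE 0.27, unadjusted p = 0.189) without those 3.

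Markers of cells that border vessels were set beside these values. The 15 mural cell genes summed to 342.6 to 576.2 CPM in sham and 428.4 to 525.7 CPM in DHCA, and 0 of 13 tested had an unadjusted p under 0.05. Of all genes tested, 4.47% were lower and 3.43% higher at that threshold. Fibroblast and meningeal genes summed to 334 to 582.8 CPM in sham and 333.1 to 411.1 CPM in DHCA, with 4 of 10 lower at that threshold. Blood cell genes summed to 202.4 to 389.9 CPM in sham and 173.5 to 281.3 CPM in DHCA, with 2 of 5 lower, and microglia and macrophage genes to 193.6 to 384.6 and 187.3 to 331.3 CPM, with 3 of 11 lower. Choroid plexus and ependymal genes were at most 79.0 CPM in sum. The part of these cells in the differences of the endothelial genes was not tested.

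The levels of single genes also varied among libraries of a group. Sham 1 held the highest level of 12 of the 29 tested genes and the lowest of 5, among them JAM2, PECAM1 and PTPRB. DHCA 3 held the lowest level of 6. Sham 5 held the highest of 4 and the lowest of 2.

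**Figure D4:**
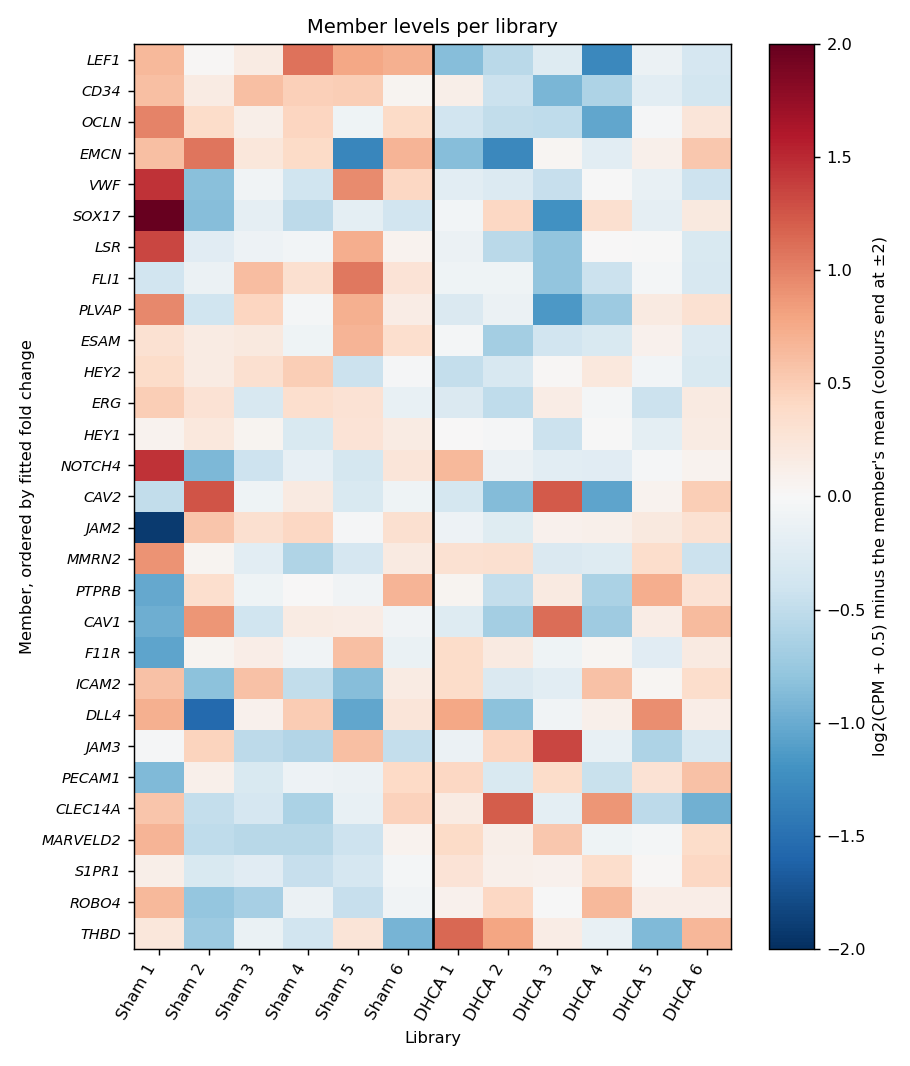
Level of each of the 29 tested genes (rows, ordered by fold change from LEF1 to THBD) in each library (columns, sham left of the black line), as log2(CPM + 0.5) minus the gene's mean over the 12 libraries. Sham 1 holds the highest level of 12 genes and the lowest of 5, and the LEF1 and CD34 rows at the top lie at or above their mean in sham and mostly below it in DHCA.

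With Sham 1 left out, ROBO4 and S1PR1 lay higher in all DHCA than in all remaining sham libraries, 2 of 29 against 1.06% of all genes, and LEF1 lower, 1 of 29 against 0.652%. At an unadjusted p under 0.05, the 4 higher genes were then ROBO4, S1PR1, MARVELD2 and THBD, and the 5 lower ones FLI1, ESAM, CD34, OCLN and LEF1. In the fit on the 9 libraries other than Sham 1, Sham 4 and Sham 5, the same 4 were higher (against 3.14%) and FLI1, ESAM, CD34, EMCN, OCLN, JAM2 and LEF1 lower (against 2.54%). In that fit ESAM and LEF1 were separated in the lower direction (against 1.55%) and ROBO4 and S1PR1 in the higher direction (against 1.85%), with 3 sham libraries left.

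**Figure D5:**
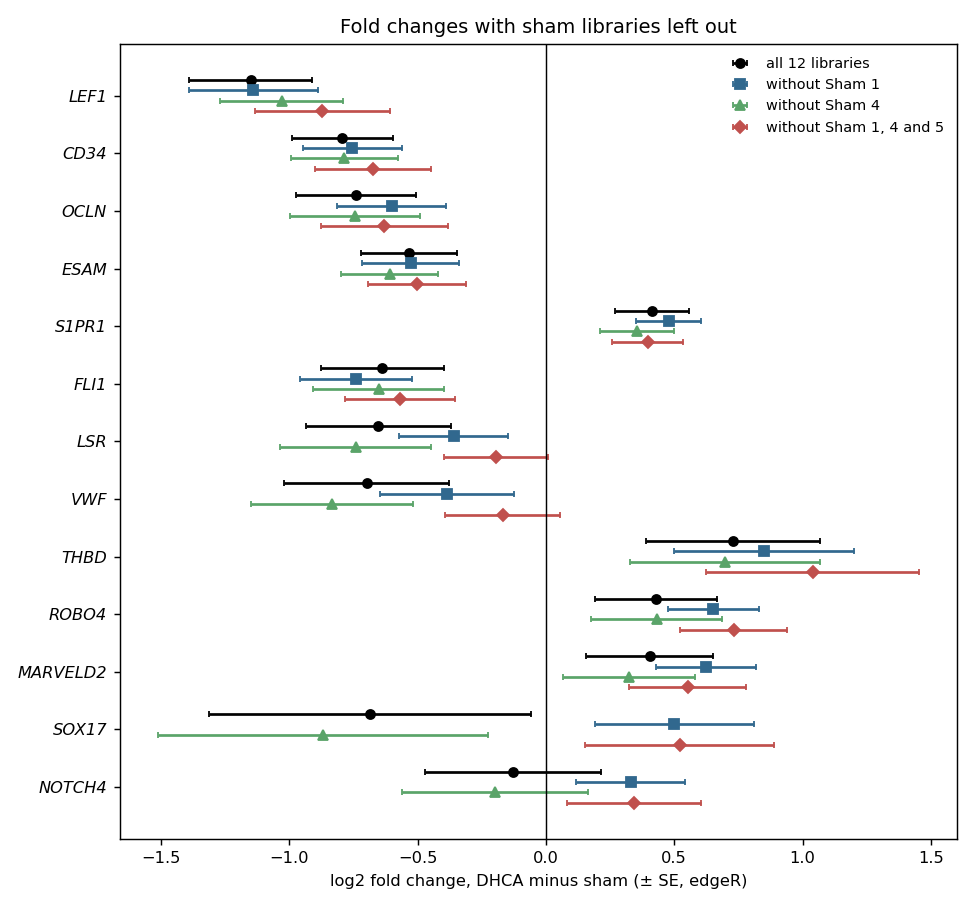
Fitted log2 fold change (horizontal axis, DHCA minus sham, with its standard error) of 13 genes with all 12 libraries, without Sham 1, without Sham 4, and without Sham 1, Sham 4 and Sham 5. LEF1, CD34, OCLN, ESAM and FLI1 stay left of 0 in each, VWF moves from -0.70 to -0.17 in the smallest set, and SOX17 and NOTCH4 change sign without Sham 1.

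In the authors' deposited table, CD34 (log2 fold change -0.83, standard error 0.19, adjusted p = 0.00367) and LEF1 (-1.17, standard error 0.27, adjusted p = 0.00378) were the 2 genes of the set with an adjusted p under 0.05, where 1.29% of genes with an adjusted p had one. OCLN followed at -0.75 (adjusted p = 0.0546 in the authors' deposited table). The DESeq2 Wald test on the 12 libraries also called these 2, LEF1 with adjusted p = 0.00226 and CD34 with adjusted p = 0.0203, where 1.24% of genes were called. The deposited table and the counts come from the same animals, so the values are not independent of each other.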

How the data were processed

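RNA of striatum from 12 newborn piglets, 6 sham and 6 DHCA, was measured by sequencing. Libraries were placed in groups by their titles. Per the file headers, the authors made raw counts with featureCounts 1.5.1 over exons of Sscrofa11.1, with no strand option. Which aligner was used is not given in the sources used. Of 18 library columns, 6 match no sample and were not used. The authors' deposited comparison table gives, per the file headers, for each gene the mean signal (normalized counts), log2 fold change, its error, a test score and p-values before and after adjustment. The submitters' processing notes name DESeq2. The deposited fold changes were read as DHCA minus sham, because 28 of the 29 tested genes then have the same sign as those computed here.

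Counts were filtered with filterByExpr, given TMM factors and fitted by group alone in edgeR 4.0.16 (R 4.3.3), with the quasi-likelihood F test. P-values were adjusted by Benjamini-Hochberg over 14004 genes with a threshold of 0.05. CPM is counts scaled after TMM, and 1 CPM equals 1.5 counts in Sham 5 and 13.7 in Sham 6. Log ratios and correlations used log2(CPM + 0.5), and correlations 100000 permutations. The alternatives were DESeq2 1.42.0, limma 3.58.1 voom, other scaling and filters, a replicate block and left-out libraries. The steps were tested on simulated data. Of the 32 genes, 9 have exons that overlap another gene, where the split of reads is uncertain.

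Genes with an unadjusted p under 0.05 or separated groups, and 12 genes fixed by name, are given with group ranges. Of each other list, up to 4 genes with the smallest p are named, and some results that this rule selects are not reported here. CDH5 and TEK are named as allowed there, and SLC17A6, CD3E, CD3D, ROBO3, RAD17, TCEA2 and MILR1 were chosen after their values were seen. The genes and lists were chosen with earlier results of these data known. The neighbour ratios were added after the values were seen and are given without a test.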

Additional observations from a re-analysis of the deposited data

Results flagged for a closer look

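Within groups of 6 libraries, 5 of 58 combinations of gene and group held a library far from the rest by Dixon's criterion, which chance alone meets in about 1 of 20. SOX17 was at 26.8 CPM in Sham 1, with the other sham libraries at 1.91 to 3.37 CPM. NOTCH4 was at 112.8 CPM in Sham 1, with the others at 21.8 to 48.4 CPM, and at 64.5 CPM in DHCA 1, with the other DHCA libraries at 35.1 to 42.9 CPM. CAV2 was at 20.7 CPM in Sham 2, with the other sham libraries at 5.82 to 9.52 CPM. JAM3 was at 221.5 CPM in DHCA 3, with the other DHCA libraries at 57.1 to 118.2 CPM.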

How the results depend on the processing

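Over all genes, edgeR called 26, DESeq2 181, voom with sample quality weights 207, the replicate block 8, the adjusted threshold of 0.01 6, the fit without Sham 1 and Sham 5 12, the fit without Sham 1, Sham 4 and Sham 5 1, and the fits without 1 library 9 to 51. Of the endothelial genes edgeR called 0, DESeq2 2, voom with quality weights 1 and the fits without 1 library 0 to 1. Genes of the set higher at an unadjusted p under 0.05 numbered 1 with edgeR, 2 with DESeq2, 3 with voom, 4 with quality weights, 2 without a filter, 2 with the 1 CPM filter, 4 without Sham 1 and Sham 5, 4 without Sham 1, Sham 4 and Sham 5, and 1 to 4 without 1 library. The share of all genes moved too, at 3.43% higher with edgeR, 2.82% with DESeq2, 3.85% with voom, 6.08% with quality weights and 4.07% without Sham 1 and Sham 5. It was 2.71% without a filter, 3.28% with the 1 CPM filter and 3.14% without Sham 1, Sham 4 and Sham 5. Lower ones numbered 5 to 8 without 1 library. The share of all genes moved in these fits as well. Without Sham 1, where 5 were lower and 4 higher, it was 4.24% lower and 3.82% higher. Among the fits without 1 library it was highest in both directions without Sham 2, where 8 were lower and 1 higher. The counts without 1 library are therefore not to be read against the shares from all 12 libraries. Non-overlapping genes numbered 1 to 2 lower and 0 to 2 higher without 1 library, and 2 lower and 2 higher without Sham 1 and Sham 5, as without Sham 1, Sham 4 and Sham 5 (all genes 1.01% lower and 1.45% higher without Sham 1 and Sham 5, 1.55% and 1.85% without the 3). Among the fits without 1 library, the share of all genes with groups that did not overlap was also highest without Sham 2, in both directions. The median of the 29 ranged from -0.16 to -0.02 without 1 library. Signs turned in 8 genes and 1 ratio, and the cause was not tested. Voom gave SOX17 0.11, MMRN2 0.0542, JAM2 0.0528, CAV1 -0.0396 and NOTCH4 0.0816. Quality weights gave SOX17 0.42, MMRN2 0.14, PTPRB -0.30, CAV1 -0.17 and NOTCH4 0.29. The upper-quartile scaling gave PTPRB -0.00945, and no filter gave MMRN2 0.00154. Without Sham 1 and Sham 5, values were 0.54 for SOX17, 0.17 for MMRN2, -0.18 for PTPRB, -0.0435 for CAV1, 0.32 for NOTCH4 and -0.16 for the PECAM1 to ICAM2 ratio. Without Sham 1, Sham 4 and Sham 5 they were 0.52, 0.0172, -0.26, -0.0758, 0.34 and -0.0788, in the same order. Without 1 library, ranges were -0.91 to 0.50 for SOX17, -0.16 to 0.19 for MMRN2, -0.14 to 0.20 for PTPRB, -0.28 to 0.0309 for JAM2, -0.11 to 0.43 for JAM3, -0.21 to 0.39 for CAV1, -0.54 to 0.28 for CAV2, -0.28 to 0.33 for NOTCH4 and -0.27 to 0.23 for the PECAM1 to ICAM2 ratio. Sham and DHCA libraries share replicate numbers in their titles, and the numbers in the count column headers run in the same order. The labels used do not say what this order stands for. Same-numbered libraries correlated in their deviations at -0.388 to 0.338, and no sham library correlated best with the DHCA library of its own number. The replicate block gave JAM2 0.0637 and NOTCH4 0.0473 and called 0 of the 29. Depth limited PROCR and TFPI, and all values from Sham 5, where 1 CPM is 1.5 counts.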
